A study of Mus musculus with 8 samples.

Results

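Laminins are trimers of an α, a β and a γ chain that polymerize in the basement membrane, and integrins are paired α and β subunits that anchor cells to laminin and to other matrix proteins. In mammary epithelium the basal cells lie on the basement membrane and attach to it through hemidesmosomes, where the integrin of Itga6 and Itgb4 binds the laminin that contains the products of Lama3 and Lamb3, while the integrins that contain Itgb1 signal through focal adhesions. The genes described here are those whose symbol marks a laminin chain (Lama, Lamb and Lamc followed by a digit) or an integrin subunit (Itga or Itgb followed by a digit or letters). There were 37 of them among the 38293 gene identifiers of the bulk RNA-sequencing tables, namely 11 laminin, 18 integrin α and 8 integrin β genes, and 34 were listed in the single-cell tables. No expression value entered this choice.

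Tumor organoids came from the MMTV-PyMT; MMTV-Cre; Ecadherin-mCFP mouse, in which a mammary promoter drives the polyoma middle T oncogene. SOX4KO lines had been made from them with CRISPR/Cas9 and were compared with control lines. Bulk RNA was sequenced from 2 control lines (WT1 and WT3) and 3 SOX4KO lines (H7, M4 and H4). Single cells were sequenced from 1 control library (GR17) and 2 SOX4KO libraries (GR18 and GR19). All groups share the transgenes. All organoids grew for 4 days after splitting, in Matrigel with FGF2, so that every line had laminin-rich matrix around it. A replicate is a line, each line is treated here as 1 clone, and the labels do not tie the single-cell libraries to the bulk lines.

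The bulk libraries held 3050323 to 4678497 counts on genes, with M4 the shallowest. The single-cell plates kept 362 to 369 wells with at least 1000 UMIs each and 7714119 to 8296953 UMIs in all, and all well numbers are shared by the 3 plates as part of the layout, not as shared cells. The RNA of Sox4, the edited gene, was 295 and 374 CPM (counts per 1e6 counts) in WT1 and WT3 and 199, 179 and 299 CPM in H7, M4 and H4, so that H4 lay within the control range. Its log2 fold change was −0.57 (SE 0.25, adjusted p = 0.277, edgeR quasi-likelihood test), and a transcript count does not measure the loss of the protein. Among markers of other cell types, 7 of the 8 immune genes had at most 0.261 CPM in each bulk line. The eighth, the macrophage gene Cd68, had 1.81 and 1.39 CPM in WT1 and WT3 and 14.1, 3.60 and 2.16 CPM in H7, M4 and H4, above both control lines in each (adjusted p = 0.252 in edgeR). The 7 endothelial genes summed to between 1.04 and 2.52 CPM. The stromal sum of 1581 to 4847 CPM was mostly Postn. Pdgfra had 41.4 to 99.8 CPM, Pdgfrb and Dcn had at most 16.4 and 11.7 CPM, both in H7, Col6a3 fell by 1.77 on the log2 scale from 7.25 and 11.6 CPM (adjusted p = 0.0624 in edgeR), and Col1a2, Col3a1, Lum and Thy1 had at most 5.70 CPM. Summed basal markers were 1375 and 2170 CPM in the control lines and 2426 to 7235 CPM in the SOX4KO lines. Sparc was the largest part, with 1302 and 732.5 CPM in WT1 and WT3. In H7, M4 and H4 it had 3763, 5342 and 1692 CPM. The basal keratins Krt5, Krt14, Krt15 and Krt17 overlapped between the groups. Of 10 basal genes tested, 5 had all SOX4KO lines above both control lines, beside 19.0% of all genes. The luminal sum, with Lcn2 the largest part, was 4490 and 4351 CPM against 5098, 4928 and 9954 CPM. Of 14 luminal genes tested, 6 had a log2 fold change above 0, and the median was −0.25. All SOX4KO lines lay above both control lines for 2 of them and below for 4, beside 19.0% and 17.9% of all genes. Of 6 epithelial genes tested, 0 had a log2 fold change above 0, and 4 lay below both control lines in every SOX4KO line. Summed cycling markers were 675 and 706 CPM against 306 to 465 CPM, with 7 of 10 cycling genes called lower, beside 2.17% of all genes. Their part in the results below was not tested.

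To ask how the laminin and integrin genes differed between genotypes, the bulk counts of all genes were compared with edgeR, and a gene counts as called when its adjusted p is below 0.1 (Benjamini-Hochberg over 11682 genes). Of the 37 genes, 23 had enough counts to be tested. Higher levels in SOX4KO lines were called for 4 of these, the α3 integrin gene Itga3, the β3 integrin gene Itgb3 and the laminin genes Lama3 and Lamb1. The background over the whole table was 4.1% called higher and 2.17% called lower. No member was called lower. An unadjusted p under 0.05 was reached by 13 members in the higher and 0 in the lower direction, against 10.4% and 7.68% of all genes, and DESeq2 also called 0 lower, against 2.76%. The median log2 fold change of the 23 was 0.67, against 0.0087 for all genes tested, and it stayed between 0.54 and 0.88 when any single line was left out. All 3 SOX4KO lines lay above both control lines for 15 members, against 19.0% of all genes, and below them for 1, against 17.9%. In bulk RNA, more cells that express a gene and more RNA per cell cannot be told apart.

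**Figure D1:**
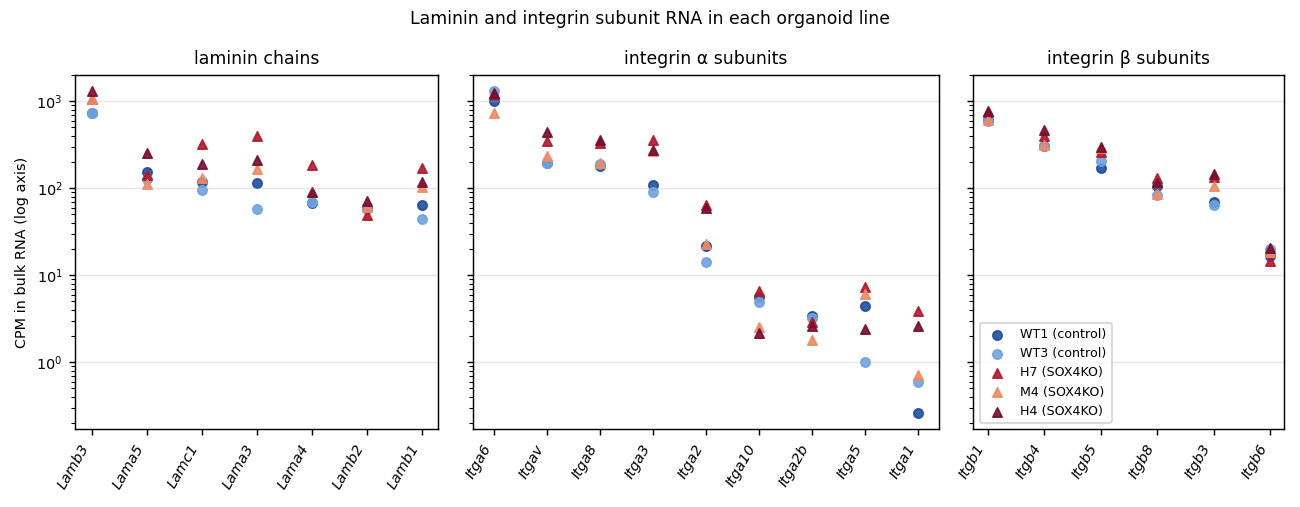
CPM of 22 of the 23 laminin and integrin genes tested in bulk RNA, 1 point per organoid line on a log axis, with control lines as blue circles and SOX4KO lines as red triangles, ordered by control level within each family. For Lama3, Lamb1, Itga3 and Itgb3 the 3 triangles lie above both circles, while for Itga6, Itgb6 and Lamb2 they overlap.

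Levels were ranked per kilobase of exon. In the control lines the highest were Itgb1 with 147 CPM per kb, the common partner of most α subunits, then Itga6 with 129 and Lamb3 with 111. The SOX4KO lines had Itgb1 at 176, Lamb3 at 173 and Itga6 at 118 CPM per kb. Of the 4 called genes, Itga3 moved from 17.5 to 52.7, Lama3 from 8.11 to 23.9, Lamb1 from 5.47 to 13.2 and Itgb3 from 11.3 to 21.9 CPM per kb. Lamb3 and Lama3 encode chains of the same trimer. Their difference in bulk level was 13.7-fold in control and 7.23-fold in SOX4KO lines on the per-length scale. In the single-cell libraries, without division by length, Lamb3 had 106, 104 and 133 CPM in GR17, GR18 and GR19. Lama3 had 69.0, 112 and 96.1 CPM there, so a difference of this size was not seen.

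Among the laminin chains, Lama3 (ENSMUSG00000024421), the α chain of the hemidesmosomal laminin, measured 116 CPM in WT1 and 58.4 CPM in WT3, compared with 394 CPM in H7, 166 CPM in M4 and 209 CPM in H4. The SOX4KO lines lay above both control lines, but H7 was far above M4 and H4 and the control lines were themselves apart. The means were 87.2 ± 40.8 (SD, n = 2) and 256 ± 121 CPM (SD, n = 3), a log2 fold change of 1.56 (SE 0.42, adjusted p = 0.0941 in edgeR). This call rested on single lines, since it was lost without WT1, without WT3 and without H7 (adjusted p = 0.131 in edgeR without H7). The log2 fold change was 2.14 without WT1 and 1.145 without WT3. The fits without WT1 or without WT3 also called fewer genes over the whole table. Lamb1 (ENSMUSG00000002900), the β chain of the widely expressed basement membrane laminins, measured 64.5 CPM in WT1 and 44.0 CPM in WT3, compared with 170 CPM in H7, 104 CPM in M4 and 119 CPM in H4. The groups did not overlap, with means of 54.2 ± 14.5 (SD, n = 2) and 131 ± 34.6 CPM (SD, n = 3) and a log2 fold change of 1.28 (SE 0.27, adjusted p = 0.0474 in edgeR). Without WT1 the adjusted p was 0.137 and without WT3 it was 0.463.

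The other laminin chains were higher on average without passing the threshold. Lamb3, the β partner of Lama3, had 741 and 728 CPM in WT1 and WT3 and 1053, 1068 and 1302 CPM in H7, M4 and H4. This was an even shift across the lines with a log2 fold change of 0.64 (SE 0.20, adjusted p = 0.136 in edgeR). Lamc1, the γ chain that pairs with Lamb1, had 118 and 96.2 CPM in WT1 and WT3 and 319, 132 and 188 CPM in H7, M4 and H4, again with H7 highest. Lama4, an α chain best known from vessels and mesenchyme, had 67.3 and 68.9 CPM in the control lines and 183, 90.7 and 89.6 CPM in the SOX4KO lines in the same order. For Lamc1 and Lama4 the adjusted p were 0.178 and 0.225. Lama5, the α chain of most adult epithelial basement membranes, overlapped between the groups, with 154 and 127 CPM against 142, 113 and 255 CPM. Lamb2 overlapped as well, with 59.0 and 57.4 CPM against 48.8, 61.6 and 70.4 CPM. Thus 8 of 8 laminin genes tested had a log2 fold change above 0, against 5941 of the 11682 genes tested. All SOX4KO lines lay above both control lines for 6 of the 8, against 19.0% of all genes. The median of the 8 was 0.91, against 0.0087 for all genes. H7 held the highest level of Lama3, Lama4, Lamb1 and Lamc1 among the 5 lines, and of Cd68, Pdgfrb and Dcn as well. Other stromal genes peaked elsewhere, with Pdgfra (99.8 CPM) and Col6a3 (11.6 CPM) highest in WT3 and Postn (4786 CPM) in M4. Col1a2 (2.33 CPM) and Col3a1 (5.70 CPM) were highest in WT1. Lama1, Lama2 and Lamc3 had 0 counts in all 5 lines.

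The α subunit genes were split. Itga3 (ENSMUSG00000001507), whose product pairs with that of Itgb1 to bind laminins, measured 110 CPM in WT1 and 90.0 CPM in WT3, compared with 358 CPM in H7, 267 CPM in M4 and 277 CPM in H4. Each SOX4KO line held more than 2 times the level of either control line. The means were 100.1 ± 14.3 (SD, n = 2) and 301 ± 50.1 CPM (SD, n = 3), a 3.01-fold difference with a log2 fold change of 1.59 (SE 0.21, adjusted p = 0.0131 in edgeR). It was called in 4 of the 5 fits that left out a line, and without WT3 its adjusted p was 0.188. Itga2, a collagen and laminin receptor subunit, had 21.5 and 14.1 CPM in the control lines, 65.0 in H7, 59.6 in H4 and 23.04 in M4. M4 was thus close to WT1, and the log2 fold change of 1.49 (SE 0.43, adjusted p = 0.112 in edgeR) missed the threshold. By contrast Itga6, the hemidesmosomal α subunit, had 1004 and 1322 CPM in WT1 and WT3 and 1202, 739 and 1250 CPM in H7, M4 and H4. It was the α subunit of highest level in bulk, whereas Itga3 was above it in each single-cell library. The bulk groups overlapped, and the log2 fold change of Itga6 was −0.13 (SE 0.27, adjusted p = 0.858 in edgeR).

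Itgav, Itga8, Itga5 and Itga2b encode subunits that recognize the RGD motif of matrix proteins. Itgav had 195 and 196 CPM in WT1 and WT3 and 350, 235 and 444 CPM in H7, M4 and H4. Itga8 had 180 and 192 CPM in the control lines and 332, 195 and 361 CPM in the SOX4KO lines, with M4 next to WT3. Neither was called, with adjusted p of 0.154 and 0.238. An antisense gene, E030013I19Rik, overlaps Itga8 and had 62 to 186 counts per line, and since the strand setting of the counting was not given in the sources used here, the reads of that overlap cannot be assigned. Itga5, a fibronectin receptor subunit, had between 0.996 and 7.31 CPM and overlapped between groups. Itga1, a collagen receptor subunit, rested on 1 and 3 counts for WT1 and WT3 and on 15, 2 and 11 for H7, M4 and H4. Itga10 had 2.16 to 6.52 CPM with overlap. Itga2b, the platelet subunit, had 3.37 and 3.19 CPM in the control lines and 2.87, 1.80 and 2.63 CPM in the SOX4KO lines, the one member tested with all SOX4KO lines below both control lines (log2 fold change −0.40, adjusted p = 0.716 in edgeR).

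For the β subunits, Itgb3 (ENSMUSG00000020689), a partner of the product of Itgav, measured 68.9 CPM in WT1 and 64.7 CPM in WT3, compared with 134 CPM in H7, 106 CPM in M4 and 147 CPM in H4. The groups were well apart and the control lines nearly equal, with means of 66.8 ± 2.93 (SD, n = 2) and 129 ± 21.2 CPM (SD, n = 3). Its log2 fold change was 0.95 (SE 0.20, adjusted p = 0.043 in edgeR), with an adjusted p of 0.259 without WT1 and 0.442 without WT3. Itgb5, another partner of Itgav, had 173 and 203 CPM in WT1 and WT3 and 259, 291 and 300 CPM in H7, M4 and H4 (log2 fold change 0.59, SE 0.18, adjusted p = 0.123 in edgeR). Itgb1 had 603 and 593 CPM in the control lines and 757, 611 and 781 CPM in the SOX4KO lines. Itgb4, the hemidesmosomal β subunit, had 302 and 306 CPM in the control lines and 394, 314 and 462 CPM in the SOX4KO lines. Both were apart between the groups by a small margin set by M4, with log2 fold changes of 0.26 and 0.36. Itgb8 and Itgb6, which pair with Itgav in the activation of TGFβ, overlapped between groups, with 82.7 to 130 and 14.6 to 20.4 CPM.

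**Figure D2:**
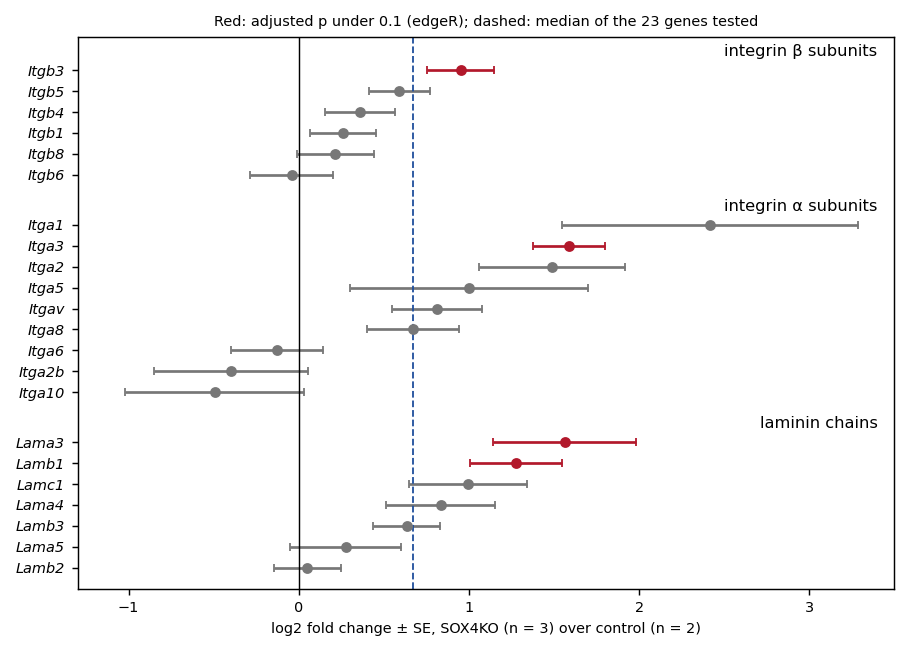
Log2 fold change of 22 of the 23 members tested in bulk RNA, SOX4KO lines (n = 3) over control lines (n = 2), with bars of 1 standard error, grouped by family. Red points are the 4 genes called at an adjusted p under 0.1 in edgeR, and the dashed line marks the median of 0.67 over the 23 genes.

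Across the 23 genes the lines were not alike. The median log2 ratio to the control mean was 0.83 in H7, 0.81 in H4 and 0.28 in M4, and 11 members were called higher when M4 was left out, beside 5.37% of all genes in that fit. Without WT1, 1 member was called higher, and without WT3, 0 were, beside 0.774% and 0.252% of all genes. In these edgeR fits 8 and 5 of the 23 had an unadjusted p under 0.05 in the higher direction, beside 6.93% and 5.08% of all genes. The call rule also mattered, as DESeq2 called 10 members higher at the same threshold, including the 4 named above, beside 5.79% of all genes.

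Of the 14 members with too few counts to be tested, Itga11, a collagen receptor subunit of fibroblasts, had 52 counts in WT1, 6 in WT3 and 0 in all SOX4KO lines. With a floor of 3 counts over the SOX4KO group it was at least 23.5-fold lower, and at least 4.30-fold lower without WT1, so the size of this difference rested on WT1. Itga7, a laminin receptor subunit of muscle, had 1 count in WT1 and in WT3, with 17 in H4, 3 in H7 and 1 in M4. Itgae, Itgax, Itgb2 and Itgb7, which are leukocyte subunits, had at most 3 counts in any line, and Itgad, Itgal, Itgam, Itga4 and Itga9 had 0. A count of 0 over a group allowed up to 0.338 CPM in the control and 0.278 CPM in the SOX4KO lines.

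Other adhesion genes were read from a list of 76 that holds basement membrane proteins, integrin ligands, hemidesmosome and focal adhesion proteins and regulators of integrins. Of the 61 tested, 50 had a log2 fold change above 0, beside 5941 of the 11682 genes. Calls were made for 11 in the higher and 2 in the lower direction, beside 4.1% and 2.17% of all genes. The median log2 fold change was 0.42, beside 0.0087 for all genes. Spp1, the secreted integrin ligand osteopontin, had 175 and 77.5 CPM in WT1 and WT3 and 1095, 1410 and 4854 CPM in H7, M4 and H4, a log2 fold change of 4.28 (SE 0.76, adjusted p = 0.0298 in edgeR). The size rested partly on single lines, with 3.31 without H4 and 4.98 without WT1, and the call was lost without WT1 (adjusted p = 0.101) or WT3 (adjusted p = 0.259). Vcam1, a ligand of leukocyte integrins, had 4.40 and 12.4 CPM in the control lines and 94.2, 86.0 and 27.1 CPM in H7, M4 and H4 and rose by 3.0 on the log2 scale, with 2.48 without WT1 (adjusted p = 0.216) and 3.96 without WT3 (adjusted p = 0.159). In the basement membrane group 4 of 11 genes tested rose, with Col18a1 at 2.29 (348 and 198 CPM against 1578, 1013 and 1427 CPM), Sparc at 1.82, the perlecan gene Hspg2 at 1.42 and Ntn4 at 0.99. Sparc is also one of the basal markers, and Hspg2 was at 2.05 without WT1 and at 0.98 without WT3. Among focal adhesion genes, Tns4 rose by 1.04, Zyx by 0.98 and Tns2 by 0.95, while Tln2, a talin, fell by 1.16. Sdc1, a syndecan that binds laminin, rose by 0.81. Tspan8, a tetraspanin that associates with integrins, fell by 2.55, from 46.1 and 38.0 CPM to 5.48, 5.04 and 10.5 CPM. Of the 13 called genes of the list, 4 were also called without WT1 and 1, Tspan8, without WT3. Without H7, 10 of the 13 were called, with Sparc and Hspg2 among those lost, and without M4 or H4, 12 were, with Sparc and Sdc1 lost in turn. Of the 4 hemidesmosome genes outside the integrins, 4 were higher on average and 0 were called, with adjusted p of 0.113 for Plec and 0.119 for Col17a1. At an unadjusted p under 0.05, 3 of these 4 were higher and 0 lower, beside 10.4% and 7.68% of all genes, and DESeq2 called 2 of them higher, beside 5.79%.

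SOX proteins bind DNA at sequences close to AACAAAG and AACAAT, and these letters were searched on both strands in promoter windows of RefSeq that run from 250 bases before a start site to 50 bases after it. Windows were given for 23 of the 37 genes. AACAAAG was in 0 of the 26 member windows and in 5.85% of all 32851 windows. AACAAT was in 3 of them, those of Itga8, Itgax and Itgb6, or 11.5% against 10.7% of all windows. Itga3 and Lamb1 are shown. Of the other called genes, Lama3 had a window that was searched but is not printed, and Itgb3 had none. The 250 bases before the start site are printed in lower case with CpG pairs in capitals, for Itga3 from chr11:95076715-95076964 on the minus strand and for Lamb1 from chr12:31265043-31265292 on the plus strand of GRCm38.p6.
Itga3: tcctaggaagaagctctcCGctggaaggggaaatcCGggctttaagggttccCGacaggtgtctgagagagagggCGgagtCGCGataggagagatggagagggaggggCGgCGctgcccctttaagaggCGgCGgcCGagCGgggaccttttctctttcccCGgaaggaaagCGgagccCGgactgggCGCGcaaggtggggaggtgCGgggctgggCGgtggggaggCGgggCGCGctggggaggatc
Lamb1: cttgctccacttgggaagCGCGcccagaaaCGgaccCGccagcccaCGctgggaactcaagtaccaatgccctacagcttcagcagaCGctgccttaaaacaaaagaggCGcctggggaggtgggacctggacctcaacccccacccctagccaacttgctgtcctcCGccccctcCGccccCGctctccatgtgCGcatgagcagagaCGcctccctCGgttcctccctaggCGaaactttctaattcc
Both sequences are rich in G and C, with 67.6% in Itga3 and 62.0% in Lamb1 against a median of 52.4% over all windows, and they hold 22 and 14 CpG pairs against a median of 6. Neither window held either motif. A further start site of Itga3 has a window with 5 CpG pairs and no match. A missing match says only that these letters were not in this stretch.

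The single-cell libraries were used to ask in which cells the members were expressed and whether the bulk differences were seen there. UMIs were summed over the wells of a library, and with 1 control library there is no test, so intervals are exact Poisson 95% intervals that cover counting error only. Of the 34 members listed, 14 reached 20 CPM on average. None of the 14 differed at least 2-fold in the same direction in both SOX4KO libraries, against 1.92% of 6303 genes higher and 0.317% lower. The 14 held 6 genes higher in both and 2 lower in both, against 38.8% and 42.5% of the 6303. Their median log2 difference to GR17, with 1 CPM added, was 0.06 in GR18 and 0.16 in GR19.

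Lama3 was the called gene of bulk that was also higher in both libraries among these 14, with 69.0 CPM (63.2 to 75.1) in GR17, 112 CPM (104 to 119) in GR18 and 96.1 CPM (89.5 to 103) in GR19. Itgb3 lay below the 20 CPM limit but was higher in both as well, with 4.02 CPM (2.73 to 5.70), 11.5 CPM (9.26 to 14.1) and 9.28 CPM (7.32 to 11.6) in GR17, GR18 and GR19. Both therefore differed from the control library by more than counting error in the direction seen in bulk. Here and below, the share of all genes that differed beyond counting error was not counted. Itga3, the strongest call in bulk, had 371 CPM in GR17, 373 in GR18 and 298 in GR19, and was thus level in GR18 and lower in GR19. Lamb1 had 94.2, 83.5 and 76.9 CPM, lower in both SOX4KO libraries, with the interval of GR18 overlapping that of GR17. Lamc1 had 105 CPM (97.6 to 112), 81.9 CPM (75.8 to 88.4) and 79.1 CPM (73.1 to 85.4), below the control in both libraries although all SOX4KO lines had been above both control lines in bulk.

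Of the integrins, Itga6 had 65.2 CPM (59.6 to 71.2) in GR17, 77.3 CPM (71.3 to 83.6) in GR18 and 117 CPM (110 to 125) in GR19. Itga8 had 45.6, 69.5 and 75.5 CPM in the same order. Both lay above the control library beyond counting error, and for Itga6 the bulk lines had overlapped. Itgb4 had 430, 516 and 387 CPM and so went up in GR18 and down in GR19. Itgb1 had 357, 366 and 396 CPM and Itgav 78.4, 87.4 and 89.0 CPM, differences of at most 0.18 on the log2 scale. Itgb5 had 43.6, 54.1 and 49.8 CPM. Among the laminins, Lamb3 had 106, 104 and 133 CPM, Lama4 99.6, 106 and 97.3 CPM and Lama5 30.2, 29.96 and 34.1 CPM, none with both SOX4KO libraries apart from the control in 1 direction. Of the 13 members that were above 0 in bulk and reached 20 CPM, 5 were higher in both SOX4KO libraries (38.5%), compared with 1486 of 3044 genes over the whole table (48.8%). Of the 3 called members in this set 1 was (33.3%), compared with 151 of 246 called genes (61.4%). Itga2 (4.93, 4.74 and 8.20 CPM), Itgb6 (7.0, 6.74 and 9.28 CPM), Lamb2 (5.57, 11.4 and 7.83 CPM), Itga4 (2.98, 3.25 and 6.99 CPM) and Itgb8 (4.15, 3.75 and 5.79 CPM) were measurable at low levels, and Itga4 had had 0 counts in the bulk lines. The remaining members listed, beside Itgam and Itgax, had at most 1.93 CPM in each library.

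**Figure D3:**
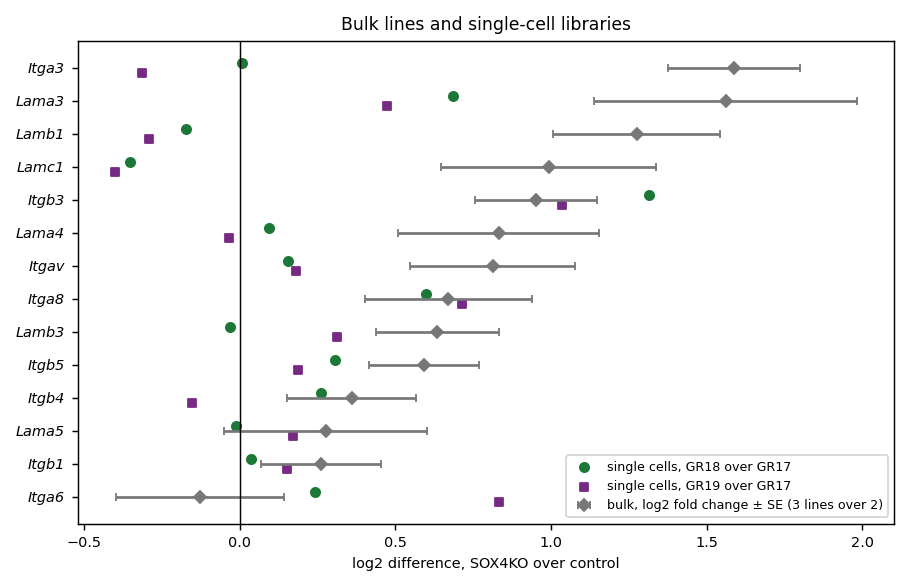
Log2 difference of SOX4KO to control for 13 of the 14 members at 20 CPM or more in single cells and Itgb3, as bulk log2 fold change with 1 SE (grey diamonds) and as log2(CPM + 1) difference of GR18 (green circles) and GR19 (purple squares) to GR17. Itgb3, Itga8 and Lama3 lie to the right of 0 in all 3, whereas Lamb1 and Lamc1 lie to the right in bulk and to the left in both libraries.

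The cells were grouped with Seurat after removing all members from the genes used, which gave 7 clusters, A to G. Clusters D and E were luminal-like by their markers, with Krt8 at 940 and 1176 CPM and Csn3 at 2048 and 2696 CPM over all their cells, and Krt5, a basal keratin, at 67.3 and 69.0 CPM. In sums over its cells, the genes most raised in D were, in order, Cxcl2, Cd209c, Pglyrp1, Mal2, Csn3, Car2, Gabrp, B4galnt2, Csn1s1 and Ccl20. Among them Cxcl2, Cd209c and Ccl20 are immune-related, and Csn3 is a luminal marker. A single well of GR18 in D held 227 UMIs of Cxcl2 and 68 of Cd209c. The share of wells with these genes was not counted. The other 5 clusters had Krt5 at 978 to 2324 CPM and are called the other cells. Clusters A and F held 330 of the 369 control cells, while B, C and G were almost wholly from the SOX4KO libraries, with cycling markers low in B and high in C and G. Cluster F, whose luminal score exceeded its basal score by less than the margin used, held 103, 9 and 7 cells of GR17, GR18 and GR19 and was kept with the other cells. The luminal-like share was 8.13% (exact binomial 95% interval 5.55 to 11.4) in GR17, 28.5% (23.9 to 33.4) in GR18 and 36.2% (31.2 to 41.4) in GR19, so the share of a library moves with its genotype label, and line, library and genotype cannot be told apart.

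Lama3 marked the other cells. In the luminal-like cells it had 7.17 CPM in GR17, 24.01 in GR18 and 12.7 in GR19, compared with 75.1, 152 and 158 CPM in the other cells of the same libraries. The difference on the log2(CPM + 1) scale was −3.22, −2.61 and −3.54, and it was the 1 member of 14 at least 2-fold lower in all 3 libraries against 1.75% of 6303 genes, while 0 were at least 2-fold higher in all 3, against 1.11%. Itgb4, its receptor subunit, had 245, 230 and 182 CPM in luminal-like cells and 449, 648 and 540 CPM in the others, a difference of 1.83-, 2.82- and 2.97-fold. Lamb3, by contrast, differed by 1.17-, 1.16- and 1.26-fold, so the chains of 1 trimer were not equally restricted. Lamb1 was 2.23-, 1.71- and 1.69-fold lower and Itga3 1.43-, 1.64- and 1.92-fold lower in luminal-like cells. Lama3, Lamb1, Itga3 and Itgb4 had intervals apart in all 3 libraries, and the share of all genes that did so was not counted. Itgb5 was 1.29-, 2.15- and 2.08-fold lower.

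In all, 9 of the 14 members were lower in luminal-like cells in all 3 libraries, against 29.8% of the 6303 genes, and 1 was higher in all 3, against 18.8%. That gene was Lama5, with 37.3, 35.0 and 37.5 CPM in luminal-like cells and 29.5, 27.6 and 31.6 CPM in the others, within overlapping intervals. The median log2 difference of the members was −0.22 in GR17, −0.74 in GR18 and −0.60 in GR19, and −0.07, −0.08 and −0.0020 over the 6303 genes. With 20 principal components the median of the members in GR17 was −0.040, with Itgav and Lamb3 at 0.036 and 0.066 there. GR17 held 30 luminal-like cells, so its values there rest on few UMIs (5 for Lama3). Itgb3 had 0 UMIs in those 30 cells, a count that allows up to 3, and was 3.42- and 6.43-fold lower in luminal-like cells of GR18 and GR19. Free RNA between wells was not estimated, and the low shares of Lama3 in luminal-like cells are not read as expression.

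**Figure D4:**
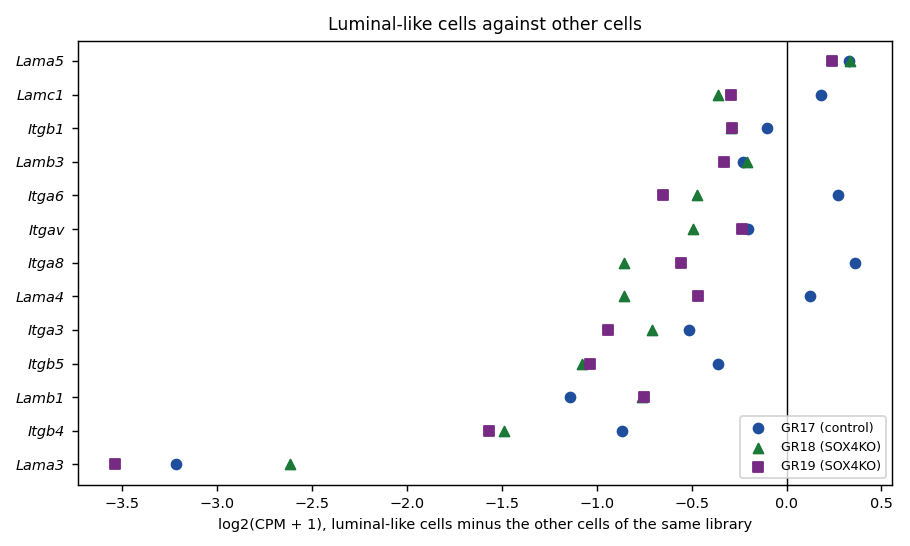
Difference in log2(CPM + 1) between luminal-like cells (clusters D and E) and the other cells of the same library for 13 of the 14 members at 20 CPM or more, with 1 point per library. Lama3 lies below −2.6 in all 3 libraries, Lama5 lies above 0 in all 3, and Itga6, Itga8, Lama4 and Lamc1 lie above 0 in the control library and below 0 in both SOX4KO libraries, which for Itga8 and Lama4 did not hold at a clustering resolution of 0.8.

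Within the other cells alone, Lama3 was 75.1 CPM in GR17 and 152 and 158 CPM in GR18 and GR19, and its interval in the control (68.8 to 81.8) was far from those in the SOX4KO libraries (142 to 163 and 147 to 170). Different clusters make up these cells, A and F in GR17 and B, C and G in GR18 and GR19. Itgb4 was 449, 648 and 540 CPM, Itga8 44.5, 81.2 and 87.5 CPM and Itga6 64.0, 84.9 and 139 CPM, each above the control in both libraries beyond counting error. So were Itgb5 with 44.5, 65.1 and 64.0 CPM and Itgav with 79.4, 96.4 and 95.1 CPM. The share of all genes apart in this way was not counted. Itgb3 was 4.42, 14.8 and 14.5 CPM. Lamb1 was 99.2, 96.2 and 93.2 CPM, so that it did not show the bulk difference in these cells. Itga3 was 382 CPM (367 to 396), 426 CPM (409 to 443) and 375 CPM (358 to 393). It lay above the control beyond counting error in GR18 and not in GR19, and by far less than the 3.01-fold difference in bulk.

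By cluster, Lama3 had 76.2 and 66.0 CPM in A and F of the control library. The SOX4KO clusters held more, with 192 and 190 CPM in B, 136 and 150 CPM in C and 134 and 132 CPM in G of GR18 and GR19. In D and E it had 9.92 to 30.5 CPM. The members did not follow 1 order over B, C and G. Itga3 had 301 and 268 CPM in B and 418 to 501 CPM in C and G, and Itgb4 had 528 and 476 CPM in B and 570 to 736 CPM in C and G. Lamc1 had 50.3 and 67.7 CPM in B and 89.8 to 116 CPM in C and G, and Lamb1 69.5 and 75.7 CPM in B and 96.1 to 119 CPM. These 4 genes were therefore lower in B, the cluster with low cycling markers, in both libraries, with overlapping intervals for Lamb1 and Lamc1 in part of the pairs. Itga6 went the other way, with 108 and 203 CPM in B and 68.5 to 110 CPM in C and G, and B was the highest of the 3 within each library, with overlapping intervals for B and G of GR18. Lama3, Lamb3 (155 and 186 CPM in B, 85.5 to 130 CPM in C and G) and Itgb3 (24.1 and 20.9 CPM in B, 4.22 to 15.9 CPM) were likewise higher in B within each library, with overlapping intervals for Itgb3 between B and C.

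**Figure D5:**
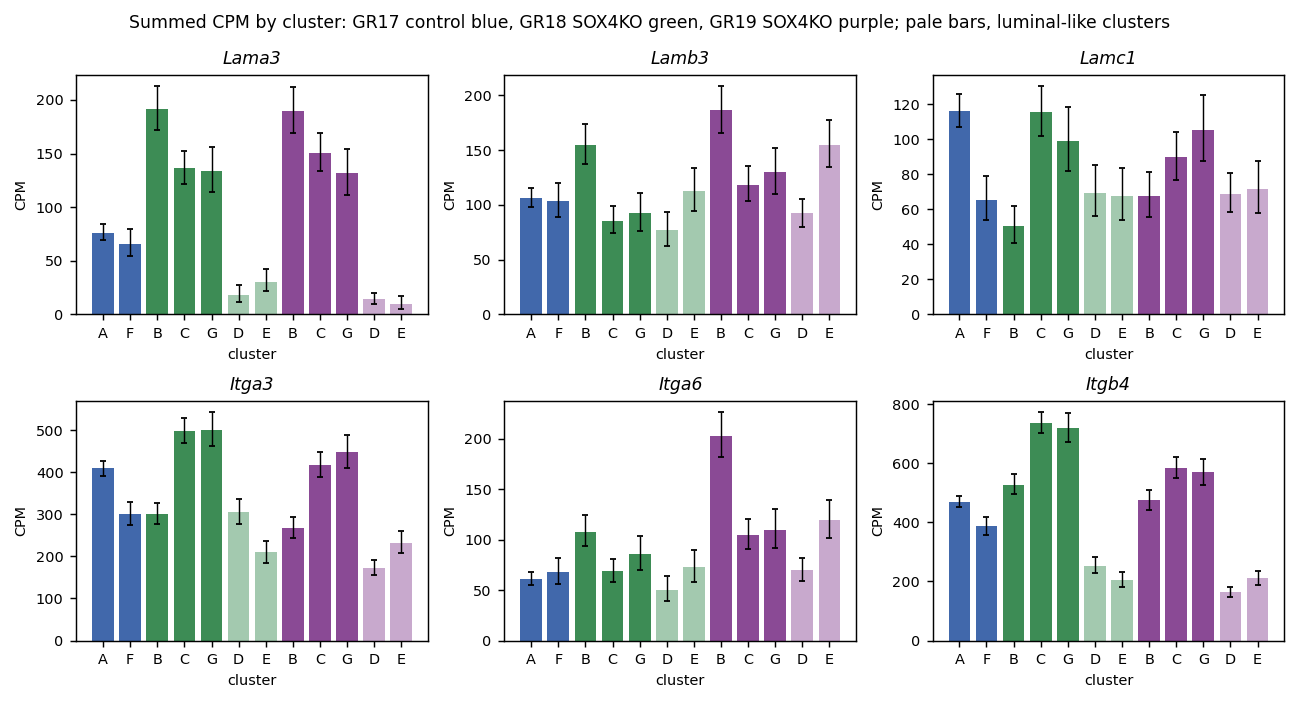
Summed CPM of 6 members in each cluster with at least 20 cells of a library, with exact Poisson 95% intervals as bars, for GR17 (blue, clusters A and F), GR18 (green) and GR19 (purple, clusters B, C, G, D and E). Lama3 and Itgb4 are lowest in the pale luminal-like clusters D and E, and Itga6 is highest in B of each SOX4KO library while Itga3 is higher in C and G.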

How the data were processed

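Bulk RNA (NEXTflex directional kit) from 5 organoid lines and plate-based single-cell RNA from 3 libraries were analysed. The authors deposited unnormalized counts, which are HTSeq read counts for each Ensembl gene in bulk and UMI counts for each gene and well in single cells. The submitters' processing notes also list STAR 2.4.2a, Picard, Seurat, edgeR and DESeq with builds NCBIM37 and mm9, and the strand setting of the counting was not given in the sources used here. The share of reads placed on no gene was 25.3% to 30.4% of the bulk table totals, and that of reads not uniquely placed 45.7% to 53.0%. Both were left out.

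The quasi-likelihood test of edgeR 4.0.16 ran in R 4.3.3 over all genes after filterByExpr and TMM scaling, and the SE was derived from the fold change and F. CPM use TMM library sizes. Exon lengths and symbols came from GENCODE M21. Wells with at least 1000 UMIs were kept, spike-ins were left out and no doublet caller was run, and 8, 20 and 11 wells in GR17, GR18 and GR19 exceeded 2 times the median UMIs of their library. Clusters used Seurat 5.3.0 (2000 variable genes without members, 10 components, 20 neighbours, resolution 0.5). A cluster was luminal-like when its luminal score exceeded its basal score by over 1, a margin set after seeing the data. Steps were tested on simulated data. DESeq2 1.42.0, its size factors, other filters and thresholds, and leaving out each line or library were the alternatives.

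The members and lists were chosen with earlier results of these data known. Named are all members but 1, which is not reported here and stays in the counts and medians over members, the called genes of the adhesion list up to the 10 largest in each direction, and Sox4. Intervals cover counting error only.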

Additional observations from a re-analysis of the deposited data

Results flagged for a closer look

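Lamc1 went in opposite directions in the 2 kinds of data, with a bulk log2 fold change of 0.99 and all 3 SOX4KO lines above both control lines, while both SOX4KO single-cell libraries lay below the control library by 0.35 and 0.40. The difference between the 2 kinds of data was not tested.

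Luminal-like cells minus the other cells had the opposite sign in the control library and in both SOX4KO libraries for 4 members. On the log2 scale with 1 CPM added, Itga6 had 0.27 in GR17 against −0.47 and −0.65 in GR18 and GR19, and Itga8 had 0.36 against −0.85 and −0.56. Lama4 had 0.12 against −0.86 and −0.47, and Lamc1 had 0.18 against −0.36 and −0.29. These differences were not tested, since there was 1 control library with 30 luminal-like cells, and in GR17 the intervals of both classes overlapped for each of the 4. At a clustering resolution of 0.8 the GR17 values were 0.054 for Itga6, −0.14 for Itga8, −0.12 for Lama4 and 0.0059 for Lamc1, so the opposite sign held for 2 of the 4.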

How the results depend on the processing

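The median log2 fold change of the 23 members in bulk stayed above 0 under every alternative run. The number of members called higher depended on the setting, with 10 by DESeq2 (5.79% of all genes), 13 with no filter beyond 1 count (5.62%) and 0 to 11 when a line was left out (0.252% to 5.37%), and 0 to 1 were called lower in those leave-outs, the 1 being Itga11 without WT3. With no filter, 1 member was called lower, again Itga11. Of the adhesion list, DESeq2 called 20 higher and the fit with no filter 25, and leaving out a line gave 0 to 14 higher and 1 to 3 lower. Genes not called turned sign when a line was left out, with Itga6 at 0.084 without WT3 and 0.072 without M4 (leave-outs −0.31 to 0.084), Itgb6 at 0.088 without WT3 and 0.085 without H7 (−0.15 to 0.088), and Lama5 at −0.14 (−0.14 to 0.49) and Lamb2 at −0.078 (−0.078 to 0.18) without H4. The cause was not tested. In single cells, the median of GR19 moved to 0.24 without mitochondrial genes and Rn45s and to 0.092 with at least 50 CPM, and none of the members over the limit, 12 with at least 50 CPM and 14 otherwise, differed at least 2-fold in both SOX4KO libraries, or in the library kept where the other was left out. For luminal-like cells, 2 members were at least 2-fold lower in all 3 libraries at a resolution of 0.8, with 20 principal components and, in an alternative chosen after seeing the data, without wells over 2 times the median UMIs, and 7 (20 principal components) to 11 (resolution of 0.8) were lower in all 3. No paired analysis was possible because the lines are separate clones and their replicate numbers only name them. With a single control line left, it is assumed to vary like the SOX4KO lines.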

Other observations

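The α subunits of leukocyte integrins, Itgam, Itgax and Itgad, were found in 11 wells of the SOX4KO libraries and in 0 of the 369 control wells, which allows a share of wells with a UMI of up to 0.813%. Of their 166 UMIs, 159 lay in 4 wells, 3 of GR18 and 1 of GR19, all in cluster D. The well with the most held 42 UMIs of Itgam, 16 of Itgax and 16 of Itgad among 10701 UMIs. In these 4 wells Itgb2, the β partner of these subunits, the leukocyte gene Ptprc and the macrophage gene Cd68 had 0 UMIs, while Epcam, an epithelial gene, had 2 to 6. The same wells held 9 to 68 UMIs of Cd209c. In order of the sum of these subunits, the 4 wells had 0, 17, 227 and 4 UMIs of Cxcl2 and 3, 1, 24 and 11 UMIs of Krt8. Whether these wells held more than 1 cell was not tested. In the bulk lines Itgam and Itgad had 0 counts and Itgax had 1.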
